A study of Mus musculus with 25 samples.

Results

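Among 24453 mouse gene regions, 566 carried the repressive mark H3K27me3 at both day 4 and day 8 of a chemical neural reprogramming together with the promoter mark H3K4me3 at day 8. They were chosen by the measured values themselves: at least 3.5 RPM of H3K27me3 in both the D4 and the D8 library, and at least 8 RPM of H3K4me3 at D8, where RPM is the read count of a region scaled to the depth of its library. That is 2.33% of the 24248 regions with a value above 0 in at least 1 library. The cells at D4 and D8 were tdMEFs kept for 4 and 8 days in M9, a serum-free medium at 5% oxygen with basic FGF, retinoic acid, the GSK3 inhibitor CHIR99021, the BMP receptor inhibitor LDN193189, the TGF-beta receptor inhibitor A83-01, the Hedgehog agonist Hh-Ag1.5, SMER28, the DNA methyltransferase inhibitor RG108 and the LSD1 inhibitor Parnate. The D0 cells were tdMEFs in medium with 10% serum at 20% oxygen. MEF is the usual short form for mouse embryonic fibroblast, and the labels neither expand td nor give the strain, age or number of animals behind the cultures. The design text of the series puts ciNSLC beside day 0 where the sample labels give tdMEFs, and the sample labels were followed. Input libraries and other cell types were not analysed here. Each of 4 marks (H3K4me3, H3K27me3, H3K27ac, H3K4me1) was measured by chromatin immunoprecipitation and sequencing at each of 3 stages in 1 library, so no value below has a replicate, no test between stages is possible, and a difference between libraries cannot be told apart from a difference between cells.

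H3K27me3 is written by the Polycomb repressive complex PRC2 and marks genes held silent, above all regulators of development. H3K4me3 is written by Trithorax-type enzymes around the start sites of active genes. Promoters that carry both are called bivalent, a state described first in embryonic stem cells and then in neural progenitors and fibroblasts, in which a silent gene keeps a promoter that can be activated or shut down for good. H3K27ac occupies the same lysine as H3K27me3, marks active promoters and enhancers, and cannot sit on a histone tail whose lysine is already methylated. In a bulk sample, both marks at a region may lie on 1 chromosome, on the 2 alleles or in different cells, and fewer cells with a mark cannot be told apart from less of the mark per cell.

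The 12 libraries held from 1.58 M reads (H3K27ac at D0) to 34.9 M reads (H3K4me3 at D8), as implied by the RPM value of a single read. For the marks that chose the members, 3.5 RPM stood for 64.5 reads of H3K27me3 at D4 and 40.1 reads at D8, and 8 RPM for 279 reads of H3K4me3 at D8. At D0, 3.5 RPM of H3K27me3 was 17.9 reads. Fibroblast genes carried H3K4me3 at every stage, 11 of 12 at 8 RPM or more with medians of 25.1, 34.1 and 49.7 RPM at D0, D4 and D8. The 7 neural progenitor genes checked had medians of 2.14, 3.25 and 9.01 RPM, and Sox2, among them, is itself a member. Summed H3K4me3 over 4 epithelial genes was 6.73, 6.97 and 16.6 RPM at D0, D4 and D8, and at D8 1 of the 4 reached 8 RPM, with 10.1 RPM. The sum was 5.70, 8.65 and 4.29 RPM over 3 blood genes and 1.98, 2.89 and 1.81 RPM over 2 muscle genes. Over 3 endothelial genes the sum was 7.21, 10.46 and 19.65 RPM and the median 1.74, 1.44 and 1.205 RPM. Only Kdr of these 3 is a member, with 4.12, 7.57 and 17.3 RPM, and it made up most of the sum at each stage. The D0 libraries differed from the later ones on the X chromosome: Xist, whose RNA silences an X chromosome, had 1.03, 41.1 and 47.9 RPM of H3K4me3 at the 3 stages. Mean H3K27me3 was 1.01, 1.70 and 1.86 RPM over regions of the X chromosome and 2.07, 1.99 and 2.16 RPM over autosomal regions. Whether the cells of the 3 stages came from the same animals is not given in the labels, so stage and source of the cells cannot be told apart in any comparison with D0.

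Of the members, 559 had a RefSeq entry: 505 protein-coding genes, 39 long non-coding RNAs, 12 microRNAs, 2 transcribed pseudogenes and 1 antisense RNA. A further member has a symbol that a spreadsheet had turned into a date and is not named. Some members were neighbours: 96 lay within 5000 bases of another member, in 38 neighbourhoods, and the 558 placed members came down to 500 separate places. The 3 with most members were Hox clusters, with 10 members at HoxB (chr11:96271330-96354020), 7 at HoxD (chr2:74668225-74748271) and 5 at HoxC (chr15:102990539-103036856). Next came 4 members around Pou3f3 and 3 each around Dio3 and Zic2. Neighbours share chromatin and may share reads, so they are not separate evidence.

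MicroRNAs show how sequence and place group some members. Of the 12, 11 had mature sequences in the RefSeq set for GRCm38.p6, and Mir124a-3 is named only. Mature strands are printed for members known from neurons or lying in Hox clusters, with the seed (bases 2 to 8, which pairs with targets) in capitals. Mir9-1 (5p strand at chr3:88215613-88215635, plus strand) and Mir9-2 (chr13:83738821-83738843, plus strand), which make the neural microRNA miR-9, give the same mature strands from 2 places. Mir129-2 (chr2:94241419-94241439, minus strand) and Mir129b (chr2:94241378-94241399, plus strand) are read from opposite strands of the same stretch, and the seeds of their 5p strands are shifted against each other by 1 base. Mir10a (chr11:96317186-96317208, plus strand) lies in HoxB and Mir615 (3p strand at chr15:103014969-103014990, plus strand) in HoxC.
miR-9-5p: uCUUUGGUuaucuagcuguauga
miR-9-3p: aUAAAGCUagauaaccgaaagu
miR-129-5p: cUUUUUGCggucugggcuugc
miR-129b-5p: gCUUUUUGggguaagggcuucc
miR-10a-5p: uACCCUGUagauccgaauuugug
miR-615-3p: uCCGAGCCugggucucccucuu

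These microRNA regions had the members' profile. Mir9-1 had 8.61, 7.32 and 6.98 RPM of H3K27me3 and 1.35, 1.44 and 12.7 RPM of H3K4me3 at D0, D4 and D8. Mir9-2 had 7.24, 7.54 and 6.37 RPM of H3K27me3 and 3.25, 5.05 and 12.4 RPM of H3K4me3. H3K4me3 was highest at D8 at both, as was its median over all regions (3.48, 5.41 and 11.1 RPM at D0, D4 and D8). H3K27me3 was above 3.5 RPM at D0 at both, while the rule set it to at least 3.5 RPM at D4 and D8. Mir124a-3, a further neural microRNA, had 4.11, 4.39 and 6.02 RPM of H3K27me3 and 0.792, 5.41 and 10.9 RPM of H3K4me3. MicroRNA regions as a whole were seldom members, 12 of 1179 or 1.02%.

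Promoter sequences are shown because bivalent promoters are known to lie mostly in CpG islands, stretches rich in the dinucleotide CG. A RefSeq promoter (250 bases before to 50 after the start site, GRCm38.p6) was at hand for 383 of the 566 members, or 67.7%, too few for a comparison of the members' base composition with that of other genes, so that check is void and only single promoters are described. CG dinucleotides are in capitals. The promoters of Isl1 (chr13:116309639-116309938, minus strand) and Neurod1 (chr2:79456587-79456886, minus strand), the neural factors with the highest mean H3K27me3 over D4 and D8 outside the regions high in every library, had 37 and 26 CG dinucleotides in 300 bases. Sox2 (chr3:34649745-34650044, plus strand) had 27 and Hoxd13 (chr2:74667975-74668274, plus strand) had 37. Hoxd13 had the most of the Hox family members with a promoter, and Hoxd10, Hoxb4, Hoxd8 and Hoxd11 had 22, 14, 6 and 4. All 27025 promoters, 1 per gene, had a median of 7. Loricrin, Lor (chr3:92083093-92083392, minus strand), a skin barrier gene, had the lowest ratio of observed to expected CG of the members with a promoter, 0.0624, with a single CG. The ratio (CG count times length, over the product of the C and G counts) was 1.05 for Isl1, above that of 96.5% of all promoters, 0.904 for Hoxd13 and 0.819 for Sox2. Sox2 and Hoxd13 were added to the printed set after their values were seen.
Isl1: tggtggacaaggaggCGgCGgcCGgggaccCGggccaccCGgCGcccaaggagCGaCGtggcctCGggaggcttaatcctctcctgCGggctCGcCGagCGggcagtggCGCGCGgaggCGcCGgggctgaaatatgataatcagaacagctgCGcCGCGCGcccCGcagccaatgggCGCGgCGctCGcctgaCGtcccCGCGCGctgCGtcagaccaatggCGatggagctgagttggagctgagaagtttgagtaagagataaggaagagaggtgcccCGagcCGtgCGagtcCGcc
Neurod1: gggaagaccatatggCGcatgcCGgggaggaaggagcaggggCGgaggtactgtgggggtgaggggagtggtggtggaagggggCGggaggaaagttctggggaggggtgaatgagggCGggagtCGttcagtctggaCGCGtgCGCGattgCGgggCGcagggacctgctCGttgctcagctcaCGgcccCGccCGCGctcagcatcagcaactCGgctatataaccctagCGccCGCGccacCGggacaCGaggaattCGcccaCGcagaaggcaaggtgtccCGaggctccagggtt
Sox2: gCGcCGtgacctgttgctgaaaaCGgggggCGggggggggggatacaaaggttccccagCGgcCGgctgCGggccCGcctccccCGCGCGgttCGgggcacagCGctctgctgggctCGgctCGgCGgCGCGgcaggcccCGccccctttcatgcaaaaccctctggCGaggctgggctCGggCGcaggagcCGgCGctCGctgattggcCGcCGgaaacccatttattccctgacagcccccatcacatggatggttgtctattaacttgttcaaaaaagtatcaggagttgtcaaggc
Hoxd13: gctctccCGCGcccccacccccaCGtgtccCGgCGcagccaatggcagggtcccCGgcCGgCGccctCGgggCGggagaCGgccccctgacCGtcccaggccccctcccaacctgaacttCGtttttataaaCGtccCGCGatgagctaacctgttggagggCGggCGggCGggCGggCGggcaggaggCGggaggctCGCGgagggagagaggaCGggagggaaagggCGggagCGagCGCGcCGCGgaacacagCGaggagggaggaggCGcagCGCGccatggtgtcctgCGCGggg
Lor: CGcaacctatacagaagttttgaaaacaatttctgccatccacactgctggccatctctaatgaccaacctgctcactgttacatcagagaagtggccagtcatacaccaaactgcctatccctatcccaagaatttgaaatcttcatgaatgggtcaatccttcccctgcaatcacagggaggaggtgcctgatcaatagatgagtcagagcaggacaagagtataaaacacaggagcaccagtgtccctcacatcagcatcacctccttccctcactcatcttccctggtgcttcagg

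A further 3 promoters belong to regions that were high in every library, which are described next. A730008H23Rik, which RefSeq lists as Hjurp (chr1:88277530-88277829, minus strand), Akap8l (chr17:32350528-32350827, minus strand) and Aida (chr1:183296810-183297109, plus strand) had 22, 18 and 20 CG dinucleotides. Both strands of all 8 promoters were searched for the TATA motif TATAAA, the GC box GGGCGG, the CCAAT box, the E-box CACGTG and the homeodomain core TAATTA, none of which contains another. Hoxd13 held all but the homeodomain core, Lor only the TATA motif, Neurod1 only the GC box, Isl1 and A730008H23Rik only the CCAAT box, Sox2 and Akap8l the GC and CCAAT boxes, and Aida the GC box and the E-box. Among all promoters 14.2% held the TATA motif, 35.9% the GC box, 37.9% the CCAAT box, 7.24% the E-box and 5.31% the homeodomain core, and these matches are letters in a window, not binding sites.
A730008H23Rik: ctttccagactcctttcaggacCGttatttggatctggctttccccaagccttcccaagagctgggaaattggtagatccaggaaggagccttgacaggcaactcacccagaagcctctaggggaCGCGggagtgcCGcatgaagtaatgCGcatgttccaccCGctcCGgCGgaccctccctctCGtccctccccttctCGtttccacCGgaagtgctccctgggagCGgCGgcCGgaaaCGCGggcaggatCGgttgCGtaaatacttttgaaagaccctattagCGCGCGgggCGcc
Akap8l: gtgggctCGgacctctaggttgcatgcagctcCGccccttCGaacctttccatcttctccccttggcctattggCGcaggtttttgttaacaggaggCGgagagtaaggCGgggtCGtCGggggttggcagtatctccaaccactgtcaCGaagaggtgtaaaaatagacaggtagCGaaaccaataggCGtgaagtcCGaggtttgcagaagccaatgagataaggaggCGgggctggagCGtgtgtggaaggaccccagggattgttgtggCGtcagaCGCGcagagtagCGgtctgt
Aida: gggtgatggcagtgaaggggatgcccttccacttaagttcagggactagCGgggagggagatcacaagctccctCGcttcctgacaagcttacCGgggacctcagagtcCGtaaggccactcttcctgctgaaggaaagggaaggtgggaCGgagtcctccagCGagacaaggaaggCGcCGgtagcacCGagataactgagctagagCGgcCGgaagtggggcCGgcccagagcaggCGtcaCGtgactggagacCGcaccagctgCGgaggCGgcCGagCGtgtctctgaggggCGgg

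At least 3.5 RPM in all 12 libraries, a criterion set after the values were seen, was reached by 12 regions, of which 9 are members: Rn45s, Mir101c, Sfi1, Pisd-ps3, Akap8l, Aida, Hjurp, A730008H23Rik and Trim41. Rn45s, the ribosomal RNA precursor, had 56.7, 102 and 205 RPM of H3K27me3 and 29.1, 27.6 and 64.98 RPM of H3K27ac at D0, D4 and D8. Mir101c had 110.2, 124 and 91.4 RPM of H3K27me3, 114, 97.7 and 64.8 RPM of H3K4me3 and 107, 96.00 and 56.3 RPM of H3K4me1. These regions carried every mark at once, including marks that exclude each other on a histone, and 8 of the 10 members with the highest mean H3K27me3 over D4 and D8 were among them. The symbol A730008H23Rik is an older name that RefSeq gives to Hjurp, and these 2 rows had nearly the same value in every library, so they stand for 1 place. What their signal comes from was not tested.

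The remaining members fill a corner of the plot of both marks at D8, bounded by the rule. Their values on the rule's marks are a description only. Over all regions the median of H3K4me3 was also highest at D8, with 3.48, 5.41 and 11.1 RPM at D0, D4 and D8. The rule favours high D8 values too, so nothing is read from a highest D8 value of its marks in the members named below. H3K27me3 had a median of 4.72 RPM at D4 and 5.23 RPM at D8 over the 566, against 1.74 and 1.83 RPM over all regions. H3K4me3 at D8 had a median of 13.4 RPM, with the middle 80% between 8.84 and 29.6 RPM. Regions with H3K4me3 of at least 8 RPM at D8 and under 3.5 RPM of H3K27me3 at both D4 and D8 (11830) had a median of 39.7 RPM.

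**Figure D1:**
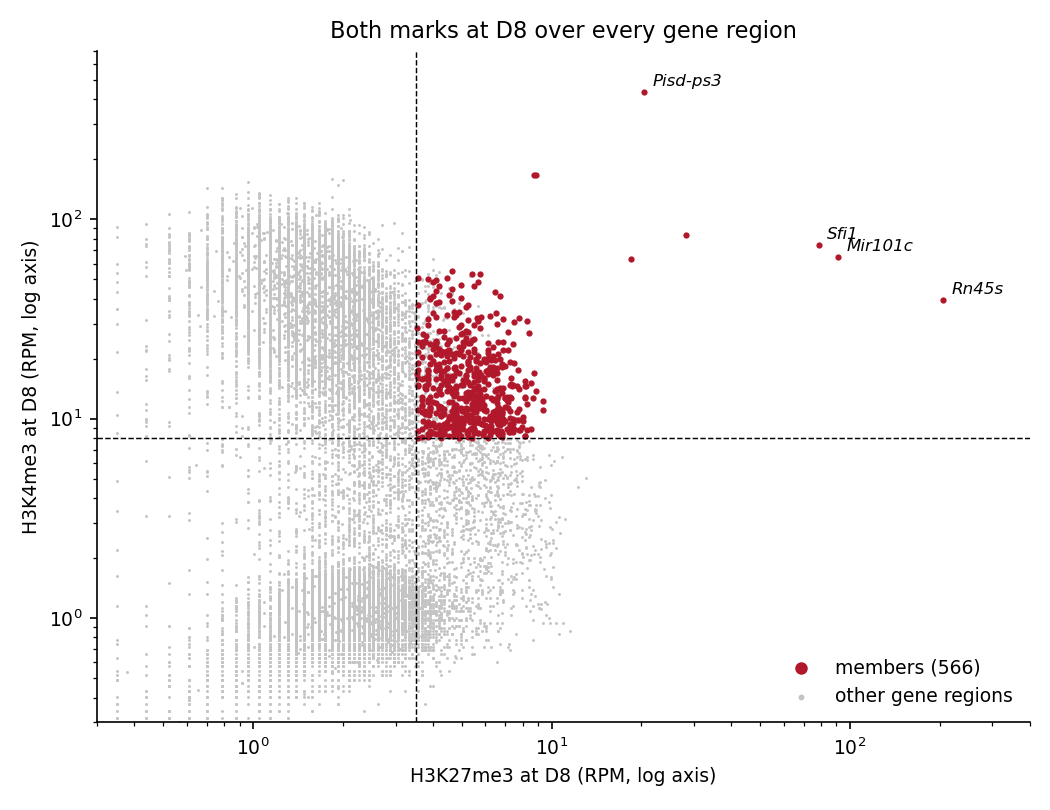
H3K27me3 (x axis) and H3K4me3 (y axis) at D8 in RPM, both on log axes, for every gene region; dashed lines are the thresholds of 3.5 and 8 RPM. Red points are the 566 members and grey points the other regions, of which those under 0.3 RPM in either mark are not drawn; named points are regions with high values in all 12 libraries.

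At the edges the choice is fine-grained. Dio3os, Erich1 and Foxf2 were among the last inside the D4 threshold with 3.525 RPM each, level with Hoxa11. Wnt11 was the first outside with 3.498 RPM. At the D8 threshold Epb41l1 and Ntrk2 were inside with 3.547 RPM, and C2cd4a, Chst3 and Ephx4 outside with 3.488 RPM. For H3K4me3, Dlx5 was inside with 8.004 RPM and Pde2a outside with 7.987 RPM. As many as 302 regions missed membership by the D4 threshold alone, 94 by the D8 threshold alone and 1016 by H3K4me3 alone. Those last 1016, with lasting H3K27me3 and little H3K4me3, and the 11830 regions above are the 2 groups used for comparison.

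Transcription factor families held a higher share of members than the table as a whole. By gene symbol, 98 of the 530 regions in transcription factor families were members (18.5%), against 2.33% of all regions. Homeobox families, whose DNA-binding homeodomain proteins pattern the embryo, gave 58 of 196 (29.6%), and other factor families 40 of 334 (11.98%). Secreted signals and their receptors gave 22 of 183 (12.02%), cell-surface and channel families 54 of 944 (5.72%), and matrix genes 7 of 122 (5.74%). None of 87 ribosomal protein, 101 respiratory chain and 1409 olfactory or vomeronasal receptor regions was a member, and 3 of 366 numbered zinc-finger regions were. The 1016 regions that missed membership by H3K4me3 alone held many factor regions too. In some families more regions lay there than were members: basic helix-loop-helix 22 against 9, Nkx 11 against 2, forkhead 11 against 7 and Pax 7 against 2. In others fewer did: Hox 8 against 21, Zic and Gli 1 against 4, LIM homeobox 5 against 6 and Dlx 2 against 3. The higher factor share is thus not shown to be particular to members. Since both marks chose the members, these counts describe the choice and carry no test.

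**Figure D2:**
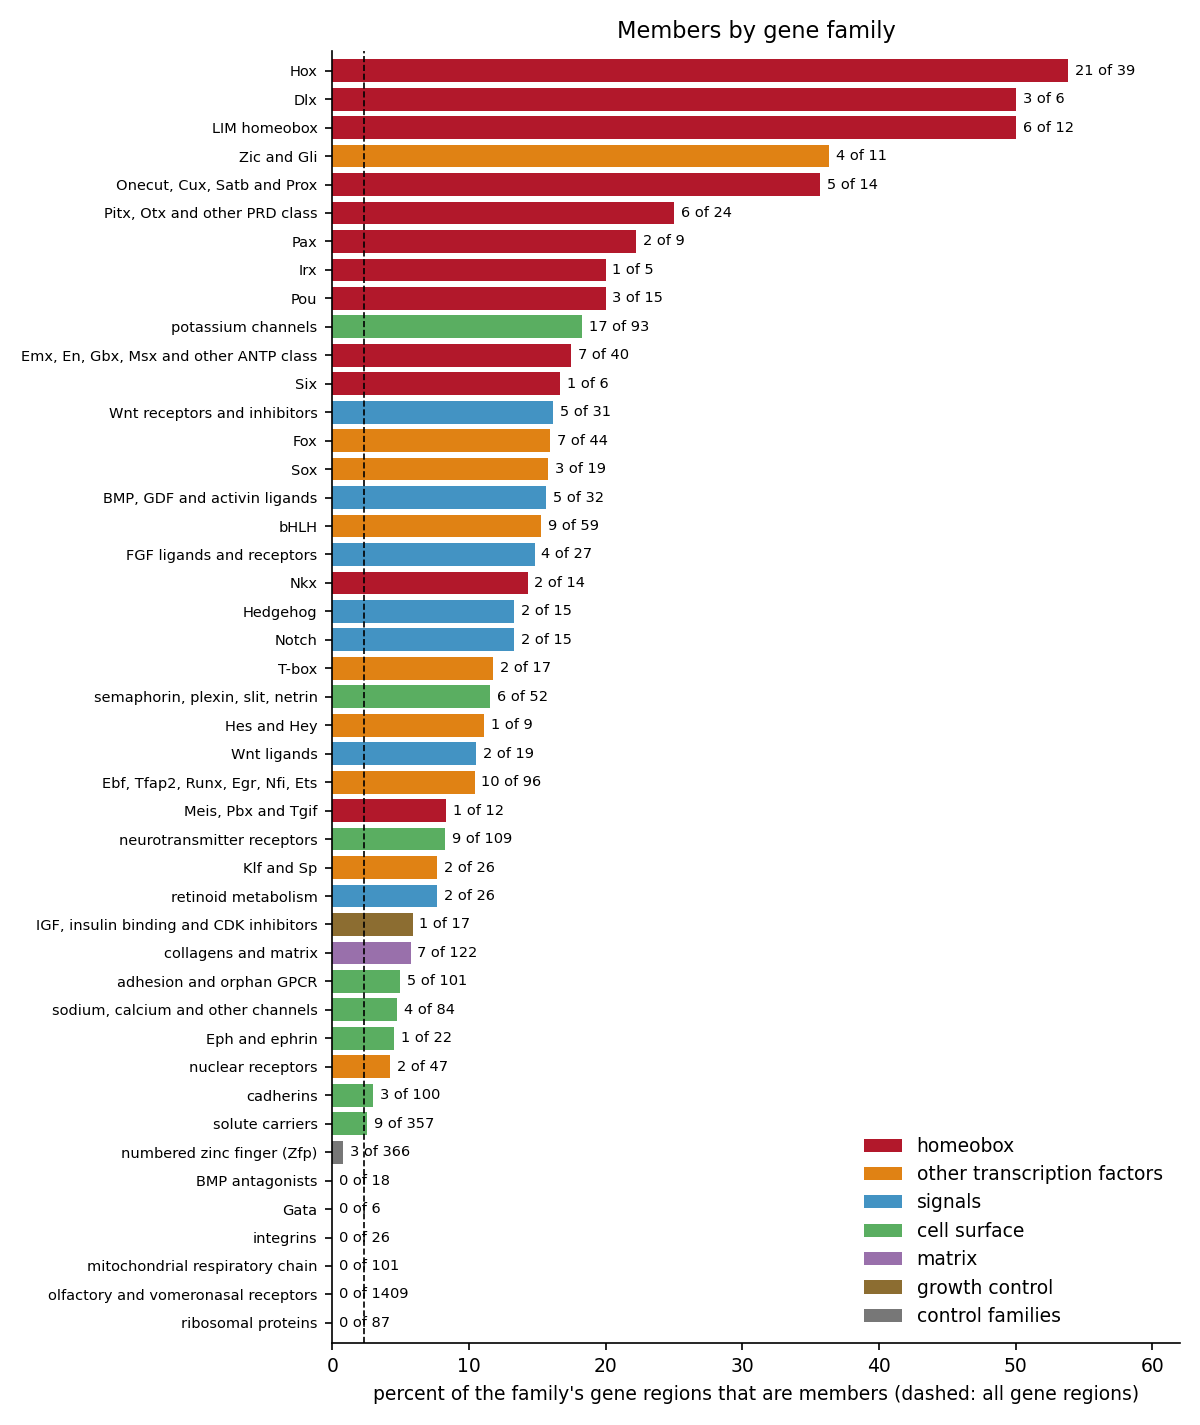
Percent of each gene family's regions that are members (x axis), with the number of members and of regions beside each bar; the dashed line is the 2.33% of all regions. The 3 longest bars, Hox with 21 of 39, Dlx with 3 of 6 and LIM homeobox with 6 of 12, are homeobox families (dark red), and Zic and Gli come next; the families with 0 members include ribosomal protein and respiratory chain genes.

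The Hox genes, homeodomain factors that give cells their position along the body axis, led with 21 of 39. Their split followed the clusters. In HoxB 8 of 10 were members, in HoxD 7 of 9, in HoxC 5 of 9 and in HoxA 1 of 11. HoxA genes had the H3K4me3, between 13.2 and 48.2 RPM at D8, and all 10 outside missed on H3K27me3 alone, with a cluster median of 2.66 RPM at D4 and 2.88 RPM at D8. Of these 10, Hoxa9, Hoxa10 and Hoxa13 had 4.45, 4.36 and 5.67 RPM of H3K27me3 at D8 and missed on D4 alone. The 8 others outside missed on H3K4me3 alone. Hoxb1 and Hoxb13, at the 2 ends of HoxB, had 1.32 and 0.832 RPM of H3K4me3 at D8, and Hoxc9 to Hoxc12 between 1.61 and 4.73 RPM.

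**Figure D3:**
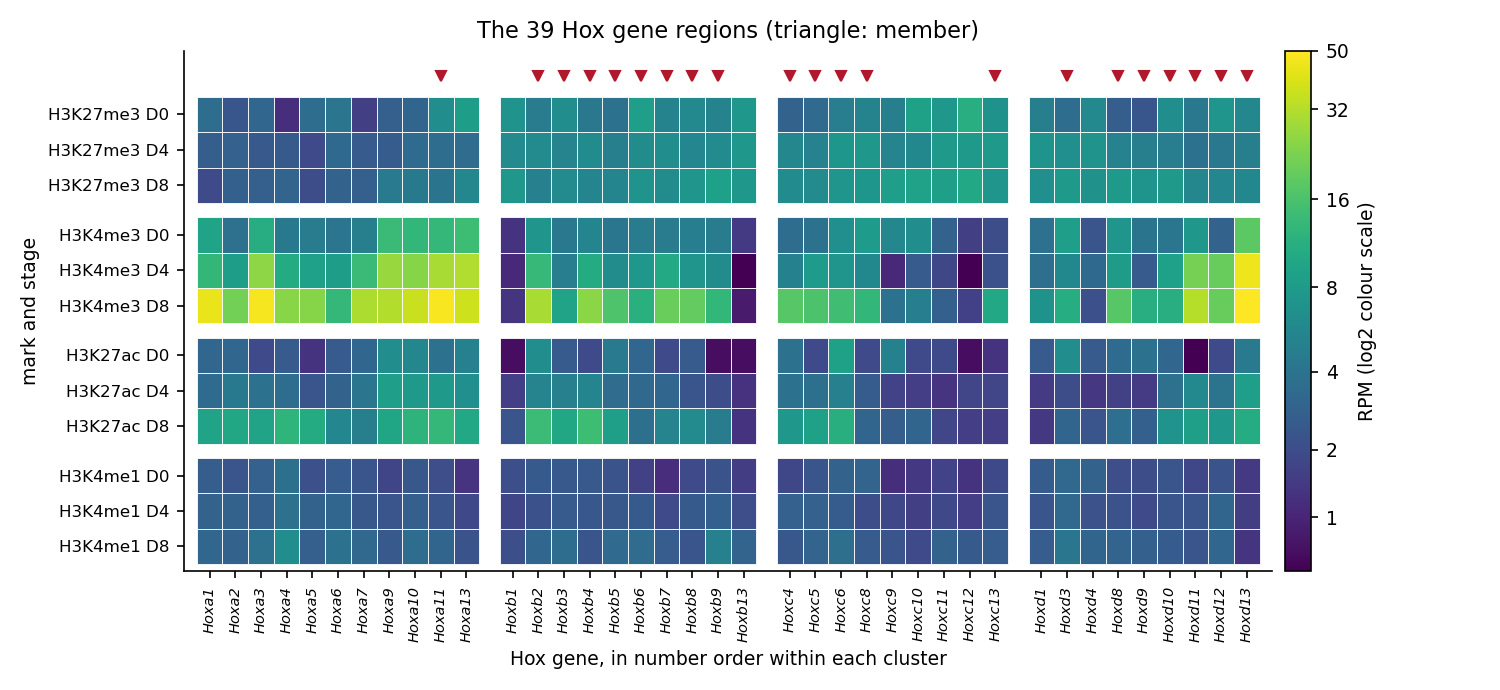
RPM (colour, log2 scale) of the 39 Hox gene regions (columns, in number order within clusters A, B, C and D) in the 12 libraries (rows, by mark and stage); triangles mark the 21 members. HoxA has 13.2 to 48.2 RPM of H3K4me3 and a median of 2.88 RPM of H3K27me3 at D8, with Hoxa9, Hoxa10, Hoxa11 and Hoxa13 above 3.5 RPM, and HoxB2 to HoxB9 carry both with H3K27ac that is highest at D8 in each.

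Within HoxB every gene from Hoxb2 to Hoxb9 was a member. Hoxb4 had 4.304, 6.07 and 5.49 RPM of H3K27me3, 5.46, 10.5 and 25.02 RPM of H3K4me3 and 1.895, 5.49 and 14.1 RPM of H3K27ac at D0, D4 and D8. H3K27me3 was already present at D0, and H3K4me3 and H3K27ac were highest at D8. Hoxb9 had the most H3K27me3 of the Hox members at D8, with 5.28, 6.02 and 8.63 RPM over the stages, 4.51, 6.13 and 12.7 RPM of H3K4me3 and 0.632, 2.01 and 4.58 RPM of H3K27ac. Hoxb2, at the front end of the run, had 4.500, 5.91 and 4.97 RPM of H3K27me3 and 7.29, 13.3 and 29.5 RPM of H3K4me3. Across Hoxb3, Hoxb5, Hoxb6, Hoxb7 and Hoxb8, H3K27me3 at D8 lay between 5.49 and 7.24 RPM and H3K4me3 between 9.28 and 20.1 RPM.

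In the other clusters, Hoxd13 of the distal limb had the most H3K4me3, 18.3, 45.4 and 53.3 RPM, over 5.67, 4.88 and 5.76 RPM of H3K27me3. Hoxd11 had 7.602, 21.6 and 31.96 RPM and Hoxd12 2.93, 19.8 and 19.9 RPM of H3K4me3. Hoxd8 and Hoxd9 were among the 21 members with H3K27me3 higher by 2-fold at D8 than at D0 (4.22% of all compared regions were): 2.67, 5.19 and 7.704 RPM for Hoxd8 and 2.35, 4.83 and 7.15 RPM for Hoxd9. In HoxC the posterior gene Hoxc13 had 6.85, 7.701 and 7.24 RPM of H3K27me3 and 1.98, 2.16 and 10.1 RPM of H3K4me3, while Hoxc4, Hoxc5, Hoxc6 and Hoxc8 had between 12.8 and 17.4 RPM of H3K4me3 at D8. Hoxd3 and Hoxd10 had 10.8 and 11.2 RPM. The only HoxA member, Hoxa11, had 6.26, 3.53 and 4.01 RPM of H3K27me3 and 13.2, 29.9 and 48.2 RPM of H3K4me3, and passed the D4 threshold as narrowly as any member.

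LIM homeobox genes, which set neuron subtypes, gave 6 of 12. Isl1, needed for motor neurons and the heart, had 12.1, 9.54 and 8.198 RPM of H3K27me3 and 3.09, 12.98 and 14.6 RPM of H3K4me3. Isl2 had 12.9, 6.02 and 9.33 RPM of H3K27me3 and 1.74, 4.33 and 12.3 RPM of H3K4me3. H3K27me3 at both was highest at D0 and H3K4me3 highest at D8. Lhx2, Lhx4, Lhx6 and Lmx1b had between 6.28 and 7.67 RPM of H3K27me3 and between 8.69 and 14.1 RPM of H3K4me3 at D8. Of the 6 outside, 5 missed on H3K4me3 alone.

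In the Pax and Nkx families most genes outside missed on H3K4me3. Of 9 Pax genes, paired-domain factors of neural tube and organs, Pax3 and Pax9 were members, and the other 7 missed on H3K4me3 alone. Pax3, of the dorsal neural tube, had 8.41, 7.76 and 7.15 RPM of H3K27me3 and 2.69, 3.61 and 12.1 RPM of H3K4me3. Pax9 had 7.63, 7.104 and 6.37 RPM of H3K27me3 with 4.36, 14.1 and 16.5 RPM of H3K4me3. Pax6 stayed outside with 7.31 RPM of H3K4me3 at D8. Of 14 Nkx genes, factors of the ventral neural tube and inner organs, Nkx3-2 and Nkx6-1 were members and 11 missed on H3K4me3 alone.

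Sox factors, HMG-box proteins, gave 3 of 19 members: Sox2, Sox7 and Sox21. Sox2, which keeps neural stem cells in their state, had 8.22, 5.97 and 7.33 RPM of H3K27me3 and 4.67, 3.61 and 16.04 RPM of H3K4me3 at D0, D4 and D8. Sox21, a SoxB2 factor of neural progenitors, had 9.98, 7.54 and 6.802 RPM of H3K27me3 and 2.14, 2.16 and 18.7 RPM of H3K4me3. At both, H3K4me3 at D4 was no higher than 3.61 RPM. At D8 the rule sets H3K4me3 to 8 RPM or more and H3K27me3 to 3.5 RPM or more. Sox7, of the endothelium, had 8.84 RPM of H3K4me3 at D8. Unlike these 3, Sox4, Sox11 and Sox9 had between 56.4 and 112 RPM of H3K4me3 and no more than 2.01 RPM of H3K27me3 at D8.

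The 3 POU class III genes of neural progenitors that were members carried both marks together. Pou3f1 had 6.26, 5.97 and 8.55 RPM of H3K27me3 and 1.901, 5.05 and 15.2 RPM of H3K4me3. Pou3f2, also called Brn2, had 5.09, 7.16 and 8.72 RPM of H3K27me3 with 2.297, 6.85 and 17.01 RPM of H3K4me3, and Pou3f3 4.696, 5.04 and 5.93 RPM of H3K27me3 with 2.69, 7.93 and 19.6 RPM of H3K4me3. In all 3, both marks were highest at D8, a stage whose values the rule used. The long non-coding neighbours Pnky, beside Pou3f2, and Pantr1 and Pantr2, beside Pou3f3, were members too.

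Zic and Gli genes, zinc-finger factors of neural tube patterning and Hedgehog signalling, gave 4 of 11, and none of the Gli and Glis genes was a member. Zic2 had 7.04, 5.59 and 7.76 RPM of H3K27me3 and 3.801, 10.5 and 32.02 RPM of H3K4me3, and Zic1 7.83, 6.78 and 7.76 RPM of H3K27me3 with 5.86, 3.97 and 14.1 RPM of H3K4me3. Zic5, next to Zic2, had 2.69, 2.16 and 19.8 RPM of H3K4me3. Zic4 missed with 7.03 RPM of H3K4me3 at D8. The Gli genes, effectors of Hedgehog signalling, sat at the other extreme, with 57.6 to 82.2 RPM of H3K4me3 and no more than 1.83 RPM of H3K27me3 at D8.

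Among further factors, Dlx genes of the forebrain and face gave 3 of 6, with 15.3, 8.004 and 8.21 RPM of H3K4me3 at D8 for Dlx1, Dlx5 and Dlx6. Basic helix-loop-helix genes gave 9 of 59. Bhlhe22, of cortical neurons, had 7.63, 3.69 and 4.099 RPM of H3K27me3 and 8.16, 21.6 and 49.4 RPM of H3K4me3, and the neuronal factor Neurod1 6.07, 7.81 and 8.29 RPM of H3K27me3 with 4.59, 2.89 and 8.78 RPM of H3K4me3. Forkhead genes gave 7 of 44, and Foxd2 had 6.07, 4.88 and 4.97 RPM of H3K27me3 and 3.96, 12.98 and 40.3 RPM of H3K4me3. T-box genes gave 2 of 17 and Gata genes 0 of 6, of which 2 missed on H3K4me3 alone and 3 on H3K27me3 alone.

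Onecut, Cux, Satb and Prox genes gave 5 of 14, and paired-like genes such as Pitx and Otx 6 of 24. Prox1, of lymphatic vessels and the dentate gyrus, had 6.65, 6.02 and 6.89 RPM of H3K27me3 and 2.93, 9.38 and 24.3 RPM of H3K4me3. Onecut2 had 9.78, 6.45 and 7.76 RPM of H3K27me3 with 1.66, 6.13 and 8.75 RPM of H3K4me3. Shox2, of limb and heart pacemaker, had 7.48, 5.46 and 6.58 RPM of H3K27me3 with 14.97, 14.3 and 29.8 RPM of H3K4me3, and Pitx1, of the hindlimb, 5.67, 5.64 and 8.895 RPM of H3K27me3 with 6.34, 8.65 and 13.7 RPM of H3K4me3. Shox2 was already at 14.97 RPM of H3K4me3 at D0, where most members were far lower.

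Signalling members came from several pathways. Of 19 Wnt ligands 2 were members: Wnt6 had 5.09, 4.23 and 6.54 RPM of H3K27me3 with 1.58, 4.33 and 9.73 RPM of H3K4me3, and Wnt7b 4.44, 4.99 and 6.19 RPM of H3K27me3 with 1.69, 2.404 and 8.77 RPM of H3K4me3. Of the other 17 Wnt ligands 8 missed on H3K4me3 alone and 7 on H3K27me3 alone. Wnt receptors and inhibitors gave 5 of 31, among them Sfrp1, a secreted Wnt inhibitor, with 3.52, 3.85 and 4.19 RPM of H3K27me3 and 13.5, 15.1 and 38.6 RPM of H3K4me3. Ligands of the BMP and activin class gave 5 of 32, and Gdf6 had 4.696, 3.96 and 4.54 RPM of H3K27me3 with 4.83, 10.1 and 24.8 RPM of H3K4me3. BMP antagonists gave 0 of 18. FGF ligands and receptors gave 4 of 27, and Fgf9 had 5.87, 4.66 and 5.41 RPM of H3K27me3 and 6.97, 20.9 and 52.96 RPM of H3K4me3, among the highest H3K4me3 levels of the members. Delta-like Dll1, a Notch ligand, had 4.89, 3.96 and 5.06 RPM of H3K27me3 with 6.73, 9.38 and 23.1 RPM of H3K4me3.

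Among surface proteins of neurons, potassium channel subunits gave 17 of 93 (18.3%), close to the 18.5% of all factor families. Other ion channels gave 4 of 84, neurotransmitter receptors 9 of 109 and axon guidance families (semaphorins, plexins, slits, netrins) 6 of 52. Kcnma1, the BK channel, led the potassium channels in both marks with 7.63, 6.24 and 8.29 RPM of H3K27me3 and 3.64, 9.01 and 30.9 RPM of H3K4me3. Hcn4, a pacemaker channel, had 6.85, 6.24 and 7.15 RPM of H3K27me3 with 3.88, 10.1 and 22.2 RPM of H3K4me3. Adrb1, the beta-1 adrenergic receptor, had 2.94, 4.39 and 4.099 RPM of H3K27me3 with 5.23, 5.05 and 32.5 RPM of H3K4me3. It was named for the highest H3K4me3 of its family's members at D8. Solute carriers were members at 2.52%, 9 of 357, near the share of all regions.

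Further leading members of their families by H3K27me3 at D8 were the epithelial zinc-finger factor Ovol2 with 6.07, 6.64 and 9.33 RPM of H3K27me3, the hindbrain homeobox gene Gbx2 with 7.63, 6.13 and 8.02 RPM, Foxd1 of the kidney stroma with 8.804, 6.18 and 8.11 RPM and Gdf7 of the roof plate with 7.44, 6.399 and 6.54 RPM. Among receptors, Fgfr3 had 2.07, 3.94 and 5.93 RPM, the semaphorin receptor Plxna4 5.28, 5.48 and 5.76 RPM and the adrenergic receptor Adra2b 4.89, 4.45 and 7.33 RPM. Of these 3 receptors, Fgfr3 alone was under 3.5 RPM at D0. The Wnt-inactivating enzyme Notum had 3.91, 5.86 and 5.67 RPM. By H3K4me3, the semaphorin receptor Plxnc1 led its family with 5.31, 16.6 and 25.5 RPM of H3K4me3, the amino acid transporter Slc43a1 with 13.7, 12.3 and 20.8 RPM, and the orphan receptor Gpr27, first of its family in both marks, with 2.53, 7.21 and 11.7 RPM. H3K4me3 was highest at D8 in these 3.

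H3K27me3 at D0 was not used to choose the members, and most of them already had it. At D0, 453 of 566 (80.04%) had at least 3.5 RPM, against 13.1% of all regions. The share was 76.1% among the 1016 regions with H3K27me3 and no H3K4me3, and 5.62% among the 11830 with H3K4me3 and no H3K27me3. Members had a median of 4.89 RPM at D0, against 4.70, 1.57 and 1.76 RPM in the 2 like groups and all regions. In 507 members (89.6%) the highest of the 3 stages was within 2-fold of the lowest, against 88.6%, 61.5% and 63.5% in the same 3 sets, and the rule held D4 and D8 of the members, and of the first of these sets, to 3.5 RPM or more. No member was at 0 or under 3 reads at D0.

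The D0 library was the shallowest of the 3 for this mark, so counting error was set beside it. In 232 members (41.0%) the lower bound of the 95% Poisson interval was itself at 3.5 RPM or more, and in 14 the upper bound was below it. Intervals cover counting error only, since PCR copies in reads with no molecular identifiers are not told apart. By class, 52 of 58 homeobox members had at least 3.5 RPM of H3K27me3 at D0, 36 of 40 members of other factor families, 17 of 22 signals, 35 of 54 surface genes and 305 of the 381 in no listed family. Medians at D0 were 5.67 RPM for homeobox and 6.80 RPM for other factor members, against 3.86 RPM for surface members.

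**Figure D4:**
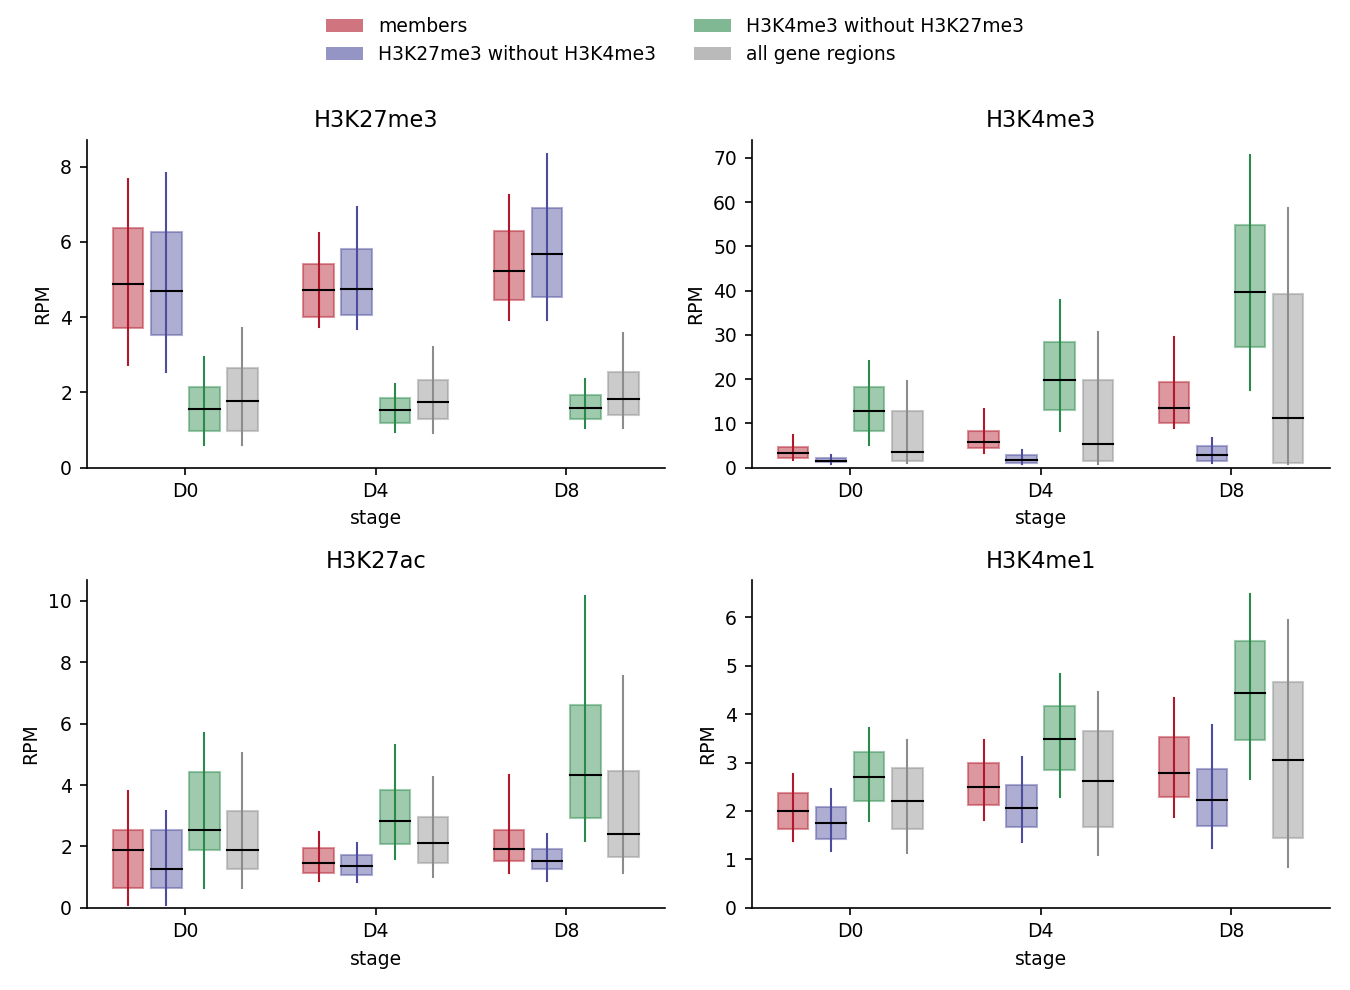
RPM (y axis) of the 4 marks at D0, D4 and D8 (x axis) in the members (red), regions with H3K27me3 and no H3K4me3 (blue), regions with H3K4me3 and no H3K27me3 (green) and all gene regions (grey); black lines are medians, boxes the middle 50% and whiskers the middle 80%. The members' median H3K27me3 stays between 4.72 and 5.23 RPM, their H3K4me3 lies between the blue and green groups, and at D8 their H3K27ac and H3K4me1 lie nearer to the blue than to the green group.

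The lowest D0 values of H3K27me3 belonged to Zbtb7c, Cys1, Atoh8, Mmp17 and Cxcl14. Atoh8, a basic helix-loop-helix factor, had 0.978, 4.72 and 5.23 RPM at D0, D4 and D8, with an interval of 0.318 to 2.28 RPM at D0. Zbtb7c, a zinc-finger factor, had 0.587, 3.58 and 4.71 RPM, with an interval of 0.121 to 1.72 RPM at D0. Mmp17, a membrane-bound metalloproteinase, had 0.978, 3.796 and 6.11 RPM, the cilia gene Cys1 0.783, 3.69 and 4.01 RPM, and the chemokine Cxcl14 1.37, 4.18 and 4.797 RPM. In all 5, the D0 value was at or below 1.37 RPM while the rule sets both later values to 3.5 RPM or more. Atoh8 carried 19.2, 15.1 and 27.2 RPM and Zbtb7c 10.1, 9.01 and 32.3 RPM of H3K4me3. Both thus had H3K4me3 of more than 8 RPM in the D0 library, where their H3K27me3 was under 3.5 RPM. No order of the 2 marks in the same cells is read from this.

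H3K4me3 at D0, also unused in the choice, was low in most members. At 8 RPM, 50 of 566 (8.83%) had it at D0, against 37.7% of all regions. The libraries differed in how much of their reads fell on gene regions, 18.9%, 28.6% and 54.0% in sum for H3K4me3 at D0, D4 and D8, so 8 RPM is a stricter demand at D0. At the D0 value of equal standing, 3.01 RPM, which is as high among D0 regions as 8 RPM is at D8, 309 members (54.6%) had H3K4me3, against 52.8% of all regions. The members' share at equal standing is thus near that of all regions. It was 7.19% in the group with H3K27me3 and no H3K4me3 and 96.9% in the group with H3K4me3 and no H3K27me3. Medians at D0 were 3.17 RPM for the members, 1.58 and 12.8 RPM for these 2 groups and 3.48 RPM for all regions.

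H3K4me3 at D4 was not used in the choice either. At 8 RPM 150 members (26.5%) had H3K4me3 at D4, against 45.7% of all regions. At the equal standing of 4.33 RPM 431 (76.1%) had it, against 52.9%. The rule sets every member to 8 RPM or more at D8, so no course from D0 to D8 is read from these shares. The D4 library was shallow, with 2.77 M reads and 0.361 RPM for a read. In 495 members (87.5%) H3K4me3 was higher at D4 than at D0 in RPM, against 70.8% of all regions, 60.5% of those with H3K27me3 and no H3K4me3 and 95% of those with H3K4me3 and no H3K27me3, and the median over all 566 was 5.77 RPM at D4 and 3.17 RPM at D0.

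Put together, the D0 state of the members depends on the H3K4me3 threshold. With 8 RPM, 37 members (6.54%) had both marks at D0, against 1.92% of all regions, 416 had H3K27me3 only, 13 H3K4me3 only and 100 neither. With equal standing, 237 members (41.9%) had both, against 4.61% of all regions, 216 had H3K27me3 only, 72 H3K4me3 only and 41 neither. The 37 with both at the stricter threshold include Hoxa11, Hoxd3, Hoxd13, Evx2, Emx2, Irx1, Shox2, Tfap2a, Mkx, Cxcr4 and Sfrp1, and all 9 of the regions high in all libraries. Irx1, an Iroquois homeobox gene, had 3.91, 4.18 and 4.099 RPM of H3K27me3 and 18.5, 19.8 and 37.9 RPM of H3K4me3. Emx2, of cortex and kidney, had 3.52, 3.63 and 6.19 RPM of H3K27me3 with 18.9, 16.2 and 32.8 RPM of H3K4me3.

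**Figure D5:**
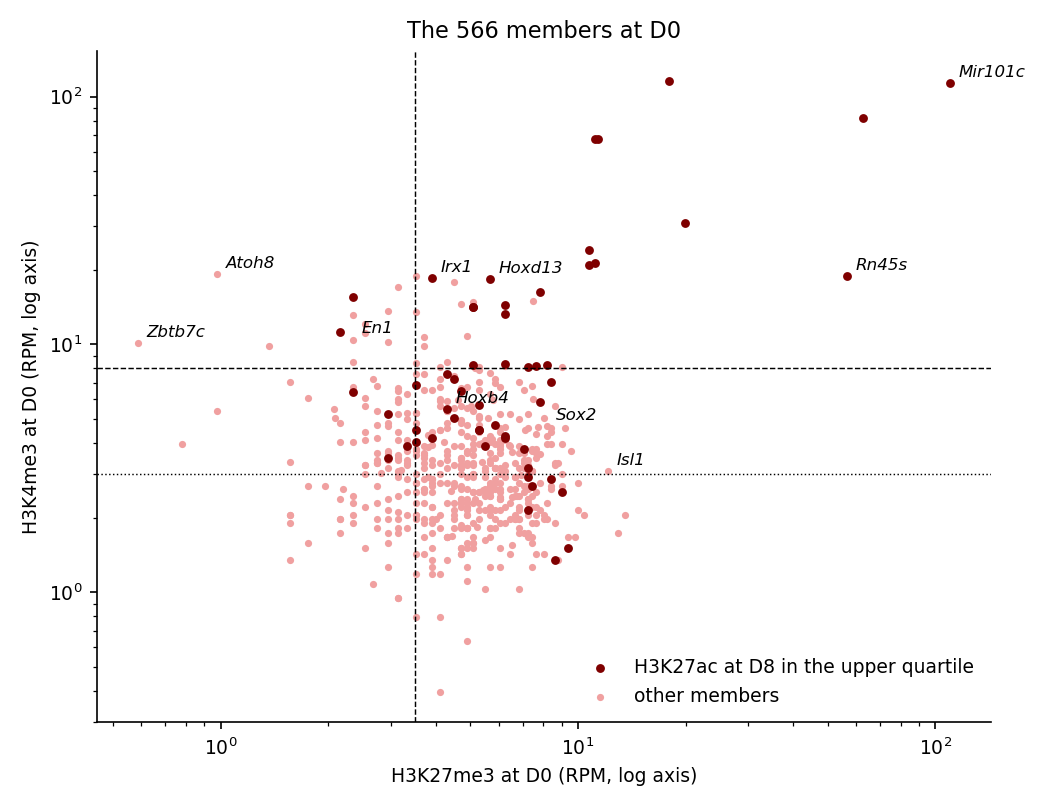
H3K27me3 (x axis) and H3K4me3 (y axis) at D0 in RPM, on log axes, for the 566 members; dashed lines are 3.5 and 8 RPM and the dotted line is the H3K4me3 level of equal standing, 3.01 RPM. Dark points are the 55 members in the upper quartile of H3K27ac at D8, and most members lie right of the vertical line and below 8 RPM of H3K4me3.

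The 13 members with H3K4me3 of 8 RPM and too little H3K27me3 at D0 include Atoh8, Ccdc87, Cxcl14, Emx2os, En1, Ism1, Osr2, Pcdh10, Slc43a1, Smoc2, Tbx5 and Zbtb7c. Their median H3K27me3 was 4.71 RPM at D8 and 2.35 RPM at D0. En1, a homeobox gene of midbrain and dorsal skin fibroblasts, had 2.35, 5.69 and 6.89 RPM of H3K27me3 and 10.5, 8.65 and 22.00 RPM of H3K4me3. Osr2, of limb and palate mesenchyme, had 2.35, 3.74 and 4.97 RPM of H3K27me3 with 15.5, 28.9 and 46.9 RPM of H3K4me3, and Tbx5, of forelimb and heart, 2.15, 4.01 and 3.92 RPM of H3K27me3 with 11.2, 13.3 and 18.9 RPM of H3K4me3. Pcdh10, a protocadherin, had 2.35, 3.74 and 4.797 RPM of H3K27me3 with 13.2, 20.2 and 33.2 RPM of H3K4me3. That H3K27me3 was lower at D0 than at D4 and D8 in these 4 follows from how they were grouped, and their H3K4me3 was highest at D8. At the other end, Crtac1, Glp1r, Kcna7, Mir124a-3 and Dtx1 had the least H3K4me3 at D0, with Wdr86 level with Dtx1, and all 5 had between 8.55 and 10.87 RPM at D8.

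The change in H3K27me3 and H3K4me3 from D0 to D8 shares its D8 library with the choice and is given as values, with nothing read from it. It is the log2 ratio of D8 to D0 after adding a pseudocount of 1.302 RPM (H3K27me3) or 1.442 RPM (H3K4me3), relative to the median of all compared regions, which was 0.003 for H3K27me3 and 1.51 for H3K4me3. This scale understates the change of low regions. The members' median was 0.09 for H3K27me3, with 21 higher by 2-fold, against 4.22% of compared regions, and 2 lower, against 1.6%. For H3K4me3 it was 0.18, with 33 higher, against 1.84%, and 7 lower, against 1.71%. The sign of the H3K4me3 median turned with a larger pseudocount.

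Among those 33, named after their values were seen, Zfp536, a zinc-finger factor of the brain, stood at 2.00 with 2.297, 14.1 and 41.2 RPM of H3K4me3 at D0, D4 and D8. Sall1, of kidney and neural progenitors, stood at 1.70 with 3.17, 12.6 and 41.3 RPM. Others of the 33 include Foxd2, Foxq1, Prox1, Hhex, Zic2, Pdgfb, Bmp7, Fgf9 and Kcnma1. Of H3K27me3, Zfp536 had 7.24, 4.45 and 4.01 RPM and Sall1 7.24, 4.34 and 6.72 RPM. The 2 with H3K27me3 lower by 2-fold at D8 than at D0 were Ddx43, an RNA helicase, with 13.5, 5.86 and 4.62 RPM, and the amino acid transporter Slc7a8, with 9.196, 5.15 and 3.58 RPM.

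H3K27ac took no part in the choice. At D8, 55 members (9.72%) lay in the upper quartile of all regions, at 4.45 RPM or more, against 25.2% of all regions, 1.18% of those with H3K27me3 and no H3K4me3 and 49.0% of those with H3K4me3 and no H3K27me3. At the median of all regions (2.42 RPM) it was 175 members (30.9%), against 52.8%. The members' median was 1.90, 1.48 and 1.91 RPM at D0, D4 and D8, against 1.90, 2.13 and 2.42 RPM for all regions. Members thus had less acetylation at D8 than regions with H3K4me3 only, whose median was 4.32 RPM, and somewhat more than regions with H3K27me3 only, whose median was 1.53 RPM.

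Many of the acetylated members were Hox cluster regions. Of the 55, 21 lay at Hox clusters (38.2%), where 27 of all 566 members lay (4.77%), 9 were the regions high in every library, and 25 were others. Most of the 27 lay in only 3 places, 10 at HoxB, 7 at HoxD and 5 at HoxC. Neighbours may share reads, so counts of Hox regions here are not counts of separate places. At the Hox clusters the members' H3K27ac had a median of 3.16, 3.84 and 7.63 RPM at D0, D4 and D8, against 1.47, 1.48 and 1.91 RPM in the other 539 members. In 26 of the 27, H3K27ac at D8 was above that at D4, as it was in 75.6% of all members and 71.8% of all regions. The 11 HoxA genes, of which 1 is a member, had medians of 3.16, 4.07 and 9.79 RPM of H3K27ac at the 3 stages. Acetylation at this level was thus not particular to Hox genes that are members. Hoxd11 had 0, 5.87 and 8.52 RPM, Hoxd13 4.42, 8.38 and 10.7 RPM and Hoxb2 6.32, 5.37 and 13.99 RPM. Mir615, within HoxC, had 0.632, 3.84 and 7.63 RPM. D8 was highest in each of these 4, and at D8 they had between 4.97 and 6.11 RPM of H3K27me3.

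Of the 25 other acetylated members, Cyp1b1, a cytochrome P450, had 3.16, 6.14 and 16.02 RPM of H3K27ac, 7.83, 4.28 and 4.62 RPM of H3K27me3 and 16.3, 27.4 and 54.8 RPM of H3K4me3. Bhlhe22 had 2.53, 5.195 and 6.61 RPM, Osr2 1.895, 2.72 and 6.36 RPM, and Tfap2a, of neural crest and skin, 2.74, 3.19 and 7.502 RPM of H3K27ac. Zic1 had 0, 2.48 and 5.85 RPM, Zic2 0.632, 1.77 and 5.595 RPM, and Mir9-1 0, 1.89 and 4.96 RPM. These 7 were highest at D8, as they were in H3K4me3. Sox2 and Sox21 were just below the quartile with 1.895, 1.12 and 4.196 RPM in Sox2 and 2.53, 1.54 and 4.32 RPM in Sox21. Cyp1b1, Tfap2a and the quartile members at large were named after their values were seen.

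Changes of H3K27ac could be judged in few members. The D0 library had 1.58 M reads, so that 1 read was 0.632 RPM, 3 reads 1.90 RPM, and 385 members had 3 reads or fewer there, 57 of them none. Of 305 members that passed the filter on low values, 36 were higher at D8 than at D0 by 2-fold, against 9.82% of compared regions, and 40 lower, against 9.22%, both relative to a median of 0.35 on the log2 scale. Of the 36 higher, 11 were at Hox clusters, 29 had 3 reads or fewer at D0 and 17 had none. Of the 40 lower, 1 was at a Hox cluster, Hoxd3 with 6.32, 2.01 and 3.05 RPM at D0, D4 and D8. The filter asked for 2.184 RPM in the larger of the D0 and D8 values. Most of the 40 lower reached it only in the shallow D0 library, such as Kcnk13 with 5.05 RPM at D0 and 0.890 RPM at D8. The 29 higher members with 3 reads or fewer at D0 reached it only at D8. Nothing is therefore read from either count. The 5 with the largest differences were Hoxd11, Zic1, Hoxb4, Mir9-1 and Mir615. The 5 at the other end were Kcnk13, Adamts19, Mettl14, 0610040J01Rik and Ccdc177, and Mettl14 had 27.8, 8.09 and 10.1 RPM. The median over the 305 was -0.20, over all 566 members without the filter -0.07, and over the 305 without centring 0.15, so its sign depends on the centring.

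H3K4me1, a mark of enhancers and promoter flanks, followed the same order of groups. The members' medians were 2.00, 2.50 and 2.79 RPM at D0, D4 and D8, against 2.20, 2.61 and 3.06 RPM for all regions. At D8, 36 members (6.36%) were in its upper quartile, at 4.67 RPM or more, against 25.4% of all regions, 4.04% of those with H3K27me3 and no H3K4me3 and 44.8% of those with H3K4me3 and no H3K27me3. The median over 382 members compared was -0.09 relative to all compared regions and turned to 0.38 without centring, 0.03 after quantile normalization and 0.019 without the filter. Of the 382, 0 were 2-fold higher at D8 than at D0, against 0.04% of compared regions, and 2, Mir101c and Sfi1, were lower, against 1.48%. Both are regions high in all libraries.

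Correlations between marks at D8 were weaker within the members than over all regions. Across the 566, which share libraries and in part neighbourhoods, Spearman's rho between H3K27me3 and H3K4me3 was -0.11, against -0.25 across all regions, and between H3K27ac and H3K4me3 0.43, against 0.79. Between H3K27me3 and H3K27ac it was 0.01, against -0.31. H3K27me3 at D0 and D8 had a rho of 0.38, and at D4 and D8 0.59. The choice narrows both rule marks at D8, and genes are not independent, so these are descriptions with no test.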

How the data were processed

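Single chromatin libraries of 4 marks at 3 stages of tdMEFs, before and during M9, were used. The authors deposited 1 value per gene symbol and library in RPM (read counts scaled to library depth), a unit read from the values, which are whole multiples of 1 read for 93.5% to 94.7% of values within 0.02 of a read. Per the submitters' processing notes the tools named were Bowtie 1.1.0, bedtools, SAMtools 0.1.19 and CASAVA 1.8.4, with the build mm10. The sources used here do not give their roles, the window counted for a gene or any duplicate or input step, and 8 value columns matched no label and were not used. Regions counted separately may overlap.

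Depth (1.58 M to 34.9 M reads) was taken from the RPM of 1 read, and 95% Poisson intervals from the implied reads. Changes are log2 ratios with a pseudocount at the 25th percentile of positive values, for regions whose larger value reached the median of the mark, centred on the median of those regions. Scripts (Python 3.11.15, pandas 2.3.3, scipy 1.17.1) were tested on simulated data. Members, families and marker lists were chosen with earlier results of these data known. Named genes are the members highest or lowest in a mark or in H3K27ac change, those nearest the thresholds, the top members in H3K27me3 and H3K4me3 at D8 of families with 3 or more, and all Hox, Pax, Sox, LIM homeobox and Wnt members. Others were chosen after their values were seen, and a few members are not reported here. Symbols that the family patterns took wrongly, none of them members, were removed after the values were seen. Alternatives were other thresholds, Poisson bounds, quantile normalization, pseudocounts, filter, centring, autosomes and regions with rows of their own. After the data were seen, settings without the 9 regions high in every library and with 1 member per neighbourhood were added. RefSeq supplied places and sequences (GRCm38.p6).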

Additional observations from a re-analysis of the deposited data

How the results depend on the processing

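Counting and scaling set how many regions qualify. Thresholds of 3 and 6 RPM gave 1013 members and of 4 and 10 RPM 297. Requiring the lower Poisson bound to reach each threshold gave 242, and quantile normalization 309, of which 268 were also among the 566 (47.3% of the members and 86.7% of the 309). The share with H3K27me3 at D0 was 86.2% at 3 RPM, 67.8% at 4 RPM, 97.5% by the upper Poisson bound and 72.4% after quantile normalization. The share with H3K4me3 at D0 moved most, with 34.8% after quantile normalization and 54.6% at equal standing. Thresholds and bounds move these counts by construction, and the cause of the moves under quantile normalization was not tested.

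For D8 against D0, the members' median for H3K4me3 was 0.39 with a 4-fold smaller pseudocount, -0.14 with a 4-fold larger one, 1.69 without centring, 0.49 after quantile normalization and 0.65 without the filter, and the cause was not tested. For H3K27me3 it was 0.011 without the filter. For H3K27ac it was 0.15 without centring. For H3K4me1 it was 0.38 without centring, 0.03 after quantile normalization and 0.019 without the filter. Of 58 settings, 5 turned the sign of a median and 15 moved a value without turning a sign. The other 38 stayed within limits set around each main value. They include leaving out the 9 regions high in every library (557 members) and keeping 1 member per neighbourhood (508). Among these 38 the H3K27ac median ran from -0.34 (1 member per neighbourhood) to -0.11 (4-fold larger pseudocount) and -0.07 (no filter). The H3K27me3 median ran from 0.054 (4-fold larger pseudocount) to 0.113 (autosomes). No paired analysis was possible because each mark and stage has 1 library. At D0, depth limits H3K27ac most, where 1 read is 0.632 RPM, and next H3K27me3, where 3.5 RPM is 17.9 reads.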

Other observations

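Some members are imprinted genes, expressed from 1 parental allele, picked out here after their values were seen. Dio3, which inactivates thyroid hormone, lay with its antisense gene Dio3os and Mir1247 at chr12:110275384-110281097, and had 3.72, 4.07 and 5.84 RPM of H3K27me3 and 1.43, 3.97 and 9.41 RPM of H3K4me3 at D0, D4 and D8. Dio3os had 3.52, 3.53 and 5.32 RPM of H3K27me3 with 1.19, 3.61 and 8.92 RPM of H3K4me3. Grb10, an adaptor that dampens insulin signalling, had 7.63, 4.37 and 4.099 RPM of H3K27me3 and 2.22, 18.4 and 24.4 RPM of H3K4me3, and Igf2os, antisense to the growth factor gene Igf2, 6.26, 5.32 and 5.49 RPM of H3K27me3 with 14.4, 14.4 and 29.6 RPM of H3K4me3. H3K4me3 at Dio3 and Grb10 was highest at D8, while at Igf2os it was 14.4 RPM at D0 already. The marks were not separated by allele.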
